A study of Mus musculus with 11 samples.

Results

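The mitochondrial genome of the mouse encodes 13 mRNAs, and 8 of them were abundant in the gingival epithelium: mt-Nd1, mt-Nd2, mt-Nd4, mt-Nd5 and mt-Nd6, mt-Cytb, mt-Co1 and mt-Atp8. These 8 were taken by name from 19170 genes with values. They were chosen by their high normalized counts, averaged over both groups, so that their abundance is a description and was not tested. The lowest of the 8, mt-Nd6, had a mean of 2689 normalized counts over all mice, and the highest mitochondrial mRNA outside the set, mt-Co3, had a mean of 97.98.

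Samples were gingival epithelium from Langerin-DTR mice, in which the diphtheria toxin receptor is expressed under the control of langerin, a lectin of these cells, and toxin therefore kills langerin-expressing cells such as Langerhans cells (LCs). All mice carried this allele. The 5 control mice received PBS and the 6 LC-depleted mice received diphtheria toxin (DT). Injections fell on postnatal days 17, 24 and 31, and tissue was taken at 8 weeks of age. By the study's flow cytometry, LCs returned step by step after the injections and were back at normal frequencies at this age. A wild-type group given DT was not analysed here. An effect of the toxin itself therefore cannot be told apart from one of the cells' earlier absence. The study's methods name male mice, its reporting sheet describes groups matched for sex, and the labels give no sex for single mice. Each mouse gave 1 poly(A)-selected library of 17509328 to 24325513 counted reads, and a normalized count is a read count divided by that library's size factor. Keratinocyte markers summed to between 2003000 and 2200000 normalized counts in every mouse. Of 7 LC markers, none passed the test between the groups, and 6 had a negative log2 fold change, with a median of -0.34. Cd207, which encodes langerin, had a mean of 20.91 normalized counts and a log2 fold change of -0.19 (limma, adjusted p = 0.853). The better counted Cd74, H2-Ab1 and H2-Aa, of antigen presentation, had -0.50, -0.53 and -0.44 (limma, adjusted p = 0.409, 0.436 and 0.491).

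Mitochondrial DNA is a small circle that is copied into RNA from both strands as long precursors, which are cut at the tRNAs that punctuate them. All but one of its mRNAs are encoded on the heavy strand, and mt-Nd6 alone is encoded on the light strand. Their products are core subunits of the respiratory chain and of ATP synthase, and they assemble with many subunits that are encoded in the nucleus, transcribed there and imported. Mitochondrial mRNAs carry short poly(A) tails, which in some of them complete the stop codon, and the mt-Nd6 mRNA is known for having little or no tail. In bulk tissue, fewer mitochondria-rich cells and less mitochondrial RNA per cell cannot be told apart.

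The base composition of the 2 strands is visible in the first bases of mt-Nd5 and mt-Nd6, 2 complex I genes that lie next to each other. Sequences are from the GENCODE M21 transcripts of GRCm38, 5′ to 3′, with each G in capitals.
mt-Nd5, bases 1 to 45: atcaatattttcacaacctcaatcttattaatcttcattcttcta
mt-Nd6, bases 1 to 45: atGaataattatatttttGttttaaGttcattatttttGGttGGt
The mt-Nd5 stretch held 0 G and the mt-Nd6 stretch 7. Over the whole mRNA, G made up 28.1% of mt-Nd6, against 10.0% of mt-Nd5 and between 5.9% and 16.1% in the 7 heavy-strand mRNAs.

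The 3′ ends show which mRNAs depend on the tail. The last codon bases are in capitals.
mt-Nd4, bases 1357 to 1378: ctaattacaggcctgacaataT
mt-Cytb, bases 1123 to 1144: aaaatactaaaattatatccaT
mt-Nd5, bases 1801 to 1824: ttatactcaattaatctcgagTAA
mt-Nd6, bases 496 to 519: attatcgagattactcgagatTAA
In mt-Nd4 and mt-Cytb the annotated mRNA ended on a single T, which added As turn into a stop codon, and the other 6 had a complete stop. The last 14 bases of mt-Nd5 and mt-Nd6 lie opposite each other on the 2 strands. Whether reads were counted by strand was not given in the sources used here, and without it reads from the 2 strands cannot be told apart where genes overlap.

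On the mitochondrial chromosome (M, GRCm38), the members lie in the order mt-Nd1 (2751 to 3707, plus strand), mt-Nd2 (3914 to 4951, plus), mt-Co1 (5328 to 6872, plus), mt-Atp8 (7766 to 7969, plus), mt-Nd4 (10167 to 11544, plus), mt-Nd5 (11742 to 13565, plus), mt-Nd6 (13552 to 14070, minus) and mt-Cytb (14145 to 15288, plus). Each is a single exon without introns. Between mt-Atp8 and mt-Nd4 lie mt-Atp6, mt-Co3, mt-Nd3 and mt-Nd4l, whose counts were low or without a value, so that low rows sat among high ones on the same strand. The final 43 bases of mt-Atp8, 204 bases long, overlap mt-Atp6, and 7 bases of mt-Nd4 overlap mt-Nd4l.

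Where reads come from the whole transcript, levels can be compared between genes only per length. On normalized counts per kb, averaged over the 11 mice, the order was mt-Co1 (111600), mt-Cytb (83890), mt-Nd1 (53120), mt-Atp8 (42100), mt-Nd2 (34280), mt-Nd5 (33470), mt-Nd4 (27840) and mt-Nd6 (5182). The top of this order was the same in every mouse: mt-Co1 exceeded mt-Cytb, and mt-Cytb exceeded mt-Nd1, in 11 of 11. The middle was not separated, since mt-Nd2 exceeded mt-Nd5 in 8 of 11 mice, with a mean log2 ratio of 0.054 ± 0.13 (SD). The light-strand mRNA stood below mt-Nd4, the lowest of the 7 heavy-strand mRNAs of the set, in 11 of 11 mice. The mean log2 ratio was 2.43 ± 0.14 (SD). Reads were poly(A)-selected and mt-Nd6 is known for little or no tail, and the part of capture in this gap was not tested. By raw normalized counts, mt-Co1 ranked 10 among the 19170 genes and mt-Nd6 ranked 1226. Values per kb assume reads from the whole transcript. The study's methods cite the QuantSeq guide for handling reads, whereas its reporting sheet names a KAPA mRNA kit. Whether the assumption holds for these libraries was not tested.

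Injection of DT was followed by lower average levels of all 8 mRNAs, but none passed the test with all 11 mice. Log2 fold changes of DT against PBS ran from -0.78 for mt-Nd4 to -0.26 for mt-Atp8, with a median of -0.67, while the median over all genes was -0.01. Of the 8, 0 passed (limma, adjusted p under 0.1 over all genes), where 0.558% of all genes passed in either direction (0.245% lower and 0.313% higher after DT), and 7 of 8 had an unadjusted p under 0.05 with a lower level after DT, against 6.19% of all genes. One control mouse, PBS 3, decided this: without it, 7 of 8 passed, all lower after DT, against 0.355% of all genes in that direction and 0.657% in either, and the median log2 fold change was -0.85. Leaving out any of the other 10 mice left 0 of 8 past the threshold. Without PBS 2, the highest mouse, the differences were smallest, from -0.64 for mt-Nd4 to -0.07 for mt-Atp8 on the log2 scale. These members were chosen, and PBS 3 was singled out, with results of these groups known, so the counts are a description.

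**Figure D1:**
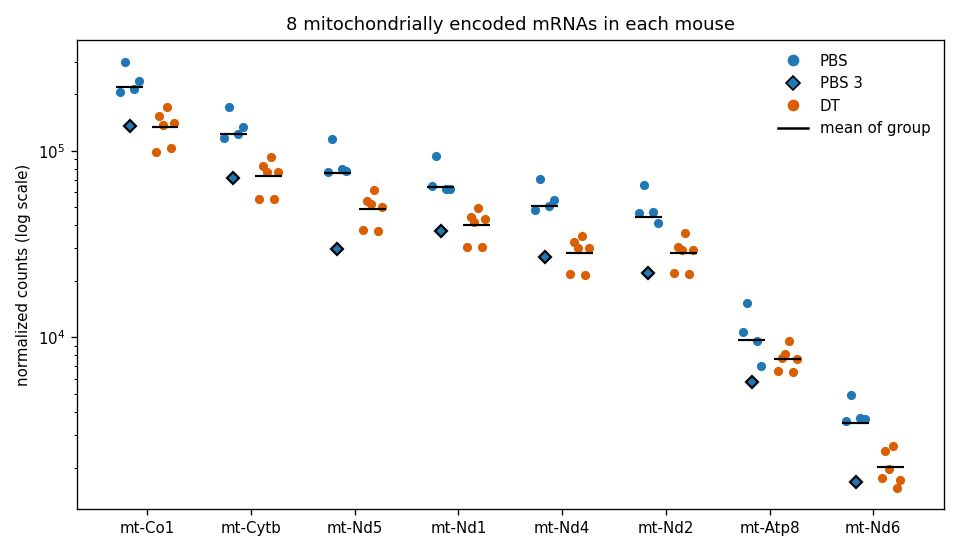
Normalized counts (log scale) of the 8 mRNAs in each mouse, with PBS mice in blue, DT mice in orange, the mouse PBS 3 as an outlined diamond and black lines for the mean of each group. PBS 2 was the highest mouse for each of the 8, and PBS 3 lay among or below the 6 DT mice.

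Among the complex I subunits, mt-Nd1 encodes a membrane-arm subunit at the ubiquinone site. Its normalized counts were 64357, 94050, 37099, 62395 and 62685 in PBS 1 to PBS 5, and after DT they ran from 30400 to 49525 with a median of 42075. All control mice except PBS 3 lay above all DT mice. The group means were 64120 ± 20190 (SD, n = 5) and 39760 ± 7735 (SD, n = 6), and the log2 fold change was -0.65 (SE 0.18, limma adjusted p = 0.196). Without PBS 3 it was -0.84 (SE 0.15, limma adjusted p = 0.0321).

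The mt-Nd2 mRNA encodes one of the proton-pumping membrane subunits. PBS mice had 46187, 65453, 22164, 46878 and 41027 normalized counts, and DT mice had 21850 to 36262, with a median of 29518. Here too PBS 3 was the single control mouse inside the DT range. With all mice the log2 fold change was -0.59 (SE 0.21, limma adjusted p = 0.282), and without PBS 3 it was -0.82 (SE 0.15, limma adjusted p = 0.0321).

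For mt-Nd4, another pumping subunit, the largest difference of the 8 with all mice was found. The controls had 48214, 70702, 27079, 50776 and 54561 normalized counts, and DT mice ran from 21496 to 34804, with a median of 30023. Of the control mice other than PBS 3, the lowest was PBS 1, well above the highest DT mouse. The log2 fold change of -0.78 (SE 0.19, limma adjusted p = 0.126) became -0.99 without PBS 3 (SE 0.14, limma adjusted p = 0.0145).

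mt-Nd5, the pumping subunit at the far end of the membrane arm, had the widest spread over mice, 3.88-fold from the lowest to the highest. Its control values were 77264, 114899, 29617, 79548 and 78276 normalized counts, and those after DT ran from 37120 to 61824, with a median of 50811. PBS 3 was lower than all 6 DT mice, whereas the other control mice were higher than all of them. Accordingly the log2 fold change moved more than 1.5-fold with this mouse, from -0.54 (SE 0.25, limma adjusted p = 0.422) to -0.85 without it (SE 0.15, limma adjusted p = 0.0317). Without PBS 2 it was -0.36.

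On the light strand, mt-Nd6 encodes a further membrane subunit of complex I. PBS mice had 3552, 4883, 1677, 3716 and 3661 normalized counts, and DT mice 1564 to 2604 with a median of 1870. Again PBS 3 lay inside the DT range and the others above it. With all mice the log2 fold change was -0.74 (SE 0.21, limma adjusted p = 0.196), and -0.99 without PBS 3 (SE 0.13, limma adjusted p = 0.0122).

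Cytochrome b, the only mitochondrially encoded subunit of complex III, comes from mt-Cytb. Counts were 117386, 171311, 71009, 122472 and 133488 in the PBS mice, and 55278 to 92706 after DT, with a median of 76914. Except for PBS 3, the control mice were above every DT mouse. Between the groups the log2 fold change was -0.72 (SE 0.19, limma adjusted p = 0.160), and without PBS 3 it was -0.90 (SE 0.15, limma adjusted p = 0.0259).

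The catalytic subunit of cytochrome c oxidase is encoded by mt-Co1, the most abundant of the set. Its normalized counts were 205585, 300255, 136104, 215151 and 237327 after PBS, and 98141 to 171710 after DT, with a median of 138375. PBS 3 lay just below the median of the DT mice. The log2 fold change of -0.69 (SE 0.18, limma adjusted p = 0.164) was -0.85 without PBS 3 (SE 0.16, limma adjusted p = 0.0360).

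The short mt-Atp8 mRNA, for a small membrane subunit of ATP synthase, was the exception. PBS mice had 10696, 15226, 5738, 9598 and 7020 normalized counts, and DT mice had 6549 to 9568 with a median of 7682. Both PBS 3 and PBS 5 were below the DT median, so the groups overlapped with or without PBS 3. Its log2 fold change was -0.26 (SE 0.19, limma adjusted p = 0.637), and without PBS 3 it was -0.42 (SE 0.16, limma adjusted p = 0.298). Without PBS 2 it was -0.07.

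**Figure D2:**
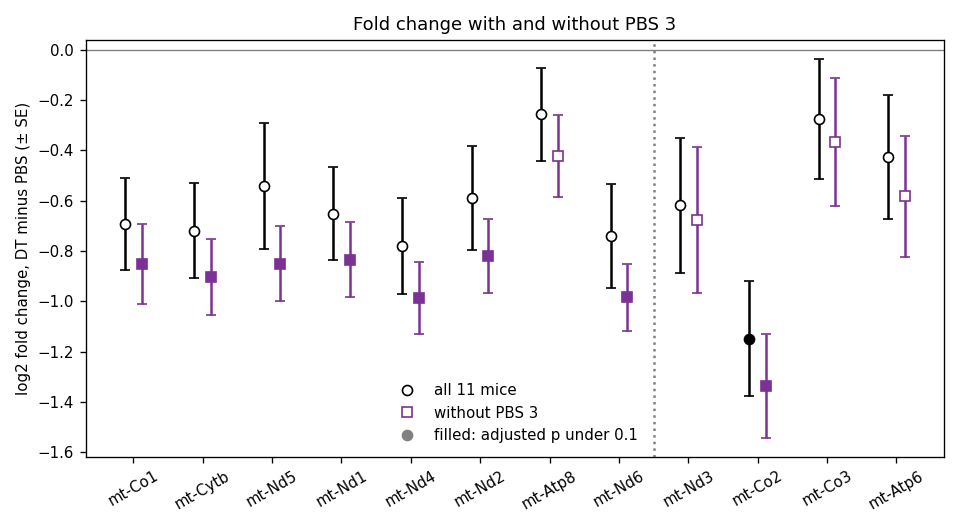
Log2 fold change of DT minus PBS with its standard error for the 8 mRNAs (left of the dotted line) and the 4 other mitochondrial mRNAs with values (right), with all 11 mice (black circles) and without PBS 3 (purple squares), filled where the adjusted p was under 0.1. With all mice the filled symbol is that of mt-Co2 alone, and without PBS 3 those of mt-Co2 and of each of the 8 except mt-Atp8 are filled.

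With all 11 mice, 0 of the 8 mRNAs had every DT mouse below every PBS mouse, a pattern that 0.751% of all genes had. Without PBS 3 this held for 7 of 8, with mt-Atp8 as the exception, against 1.49% of all genes. PBS 3 was singled out after the values of these mRNAs were seen, and the members moved together. The count without it is therefore a description. In PBS 3 itself, LC markers summed to 4736 normalized counts, the highest of the control mice (1819 to 4736, against 1299 to 2727 after DT), and T cell markers summed to 55.32 (10.02 to 55.32 in controls, 13.1 to 35.43 after DT). Neutrophil and macrophage markers, at 2359, were not the highest of the controls (849.6 to 3627, against 827 to 3895 after DT). The part of these markers in the mitochondrial levels was not tested.

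The 8 mRNAs together took 2.87%, 4.14%, 1.63%, 2.92% and 3.03% of counted reads in PBS 1 to PBS 5. After DT they took 1.34% to 2.24%. The group means were 2.92% ± 0.89 (SD, n = 5) and 1.77% ± 0.35 (SD, n = 6). PBS 2 thus gave the largest share to these mRNAs and PBS 3 a share inside the DT range, and the control mice were more spread out than the DT mice. Since reads were poly(A)-selected, these are shares of the captured mRNA and not of all RNA.

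Across the 11 mice the members moved together. Pearson's r between the log2 values of 2 members was 0.917 to 0.998 for the 21 pairs without mt-Atp8, and 0.760 to 0.896 for the 7 pairs with it. After the group means were removed, the ranges were 0.907 to 0.996 and 0.795 to 0.920. All points share the library and its size factor, and the correlations are given as a description. The mt-Nd6 mRNA thus followed the heavy-strand mRNAs from mouse to mouse although it is made from the opposite strand.

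The ratio of the strands was therefore set out mouse by mouse. For each 1000 normalized counts on the 7 heavy-strand mRNAs, mt-Nd6 had 6.24, 5.87, 5.10, 6.33 and 5.96 in the PBS mice. After DT it had 6.48, 6.11, 5.28, 5.71, 5.66 and 4.56. The means were 5.90 ± 0.49 (SD, n = 5) and 5.63 ± 0.67 (SD, n = 6), so the groups overlapped and differed by less than either SD. DT 1 had the highest ratio and DT 6 the lowest of all mice. This ratio does not depend on the size factor. It can depend on how well each mRNA was captured by its tail, which was not tested.

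**Figure D3:**
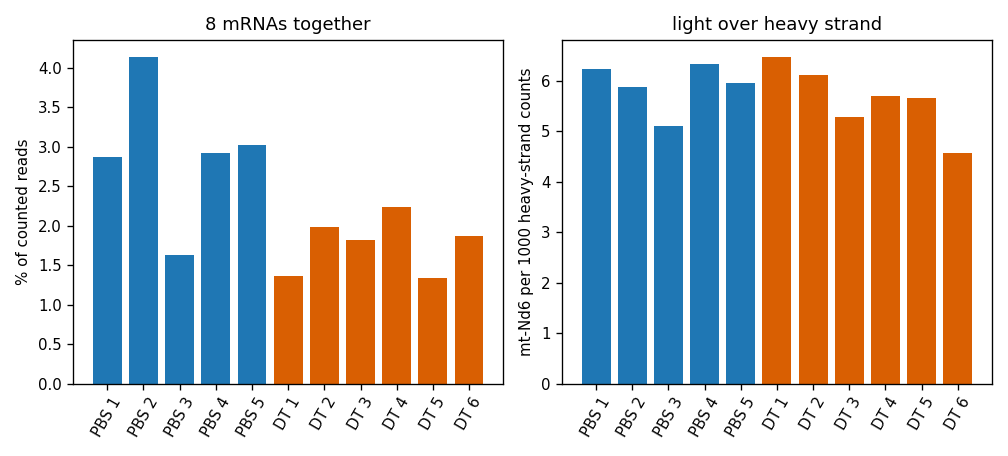
Left, percent of each mouse's counted reads on the 8 mRNAs. Right, normalized counts of mt-Nd6 per 1000 on the 7 heavy-strand mRNAs. PBS mice are blue and DT mice orange. The share ran from 1.34% to 4.14%, while the strand ratio stayed between 4.56 and 6.48.

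Dividing each mRNA by the sum of the 8 in the same mouse also removes the size factor, and the make-up that was left was not the same in every mouse. mt-Nd5 made up 8.96% of the sum in PBS 3, against 12.7% to 13.8% in the other 10 mice, and mt-Co1 made up 41.2% in PBS 3, against 35.8% to 38.4%. PBS 3 therefore differed from the other controls in which mRNAs it had, besides having fewer of them. PBS 5 stood apart in another one: mt-Atp8 made up 1.14% of its sum, against 1.63% to 1.87% in the other control mice. The share of mt-Nd2 was low in both, at 6.71% in PBS 3 and 6.64% in PBS 5, and the other 9 mice ran from 7.52% to 8.06%.

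In 3 of the 8, the shares of the sum did not overlap between the groups with all 11 mice. mt-Atp8 made up 1.14% to 1.87% after PBS and 1.91% to 2.41% after DT. For mt-Nd4 the shares were 8.19% to 8.83% after PBS and 7.58% to 8.02% after DT, and for mt-Cytb they were 20.5% to 21.6% and 19.9% to 20.4%. The mt-Atp8 shares lay higher after DT, and those of mt-Nd4 and mt-Cytb lower. Means after PBS and DT were 1.64% ± 0.29 and 2.15% ± 0.20 for mt-Atp8 (SD, n = 5 and n = 6). They were 8.50% ± 0.24 and 7.87% ± 0.17 for mt-Nd4, and 20.95% ± 0.55 and 20.24% ± 0.19 for mt-Cytb. In all 3 the means differed by more than the SD among the control mice. The distance between the nearest mice of the groups was smaller than that SD. Shares of a sum are tied to each other, no share over all genes can be set beside this count, and no test was run on them.

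**Figure D4:**
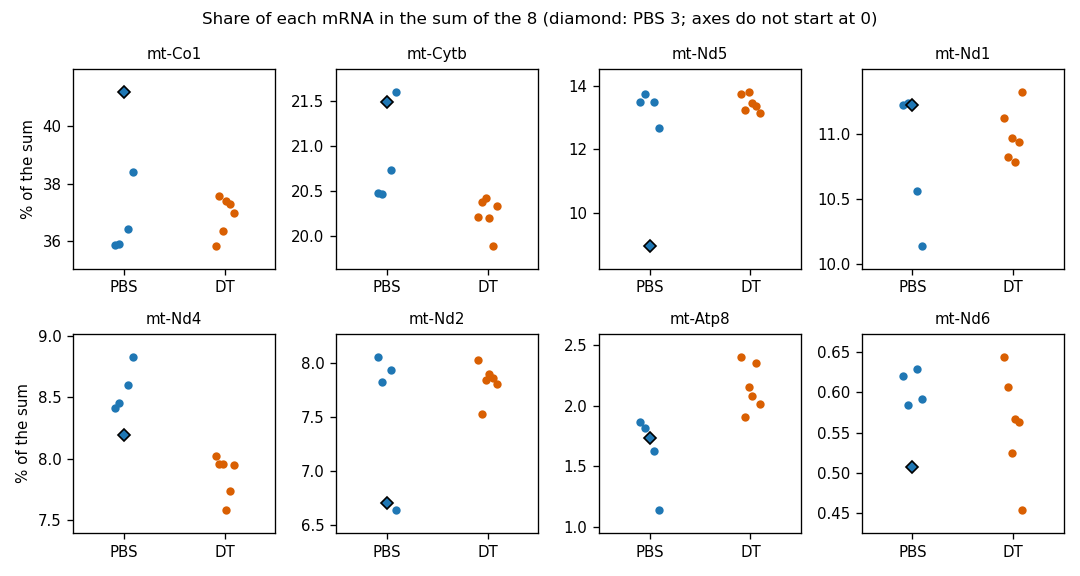
Percent of the sum of the 8 mRNAs that each one took in each mouse, with PBS in blue, DT in orange and PBS 3 as an outlined diamond; each panel has its own axis, which does not start at 0. The groups do not overlap for mt-Nd4, mt-Atp8 and mt-Cytb, and PBS 3 lies apart for mt-Nd5 (8.96%) and mt-Co1 (41.2%).

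The remaining 5 mitochondrial mRNAs were low or absent from the values, although they are cut from the same heavy-strand precursor. mt-Co3, mt-Nd3, mt-Atp6 and mt-Co2 had 125, 72.95, 47.56 and 46.98 normalized counts per kb, all below mt-Nd6, and mt-Nd4l and both mitochondrial rRNAs (mt-Rnr1 and mt-Rnr2) had no value. The rRNAs were among the gene types excluded before deposit. Each low mRNA has a nuclear copy, a pseudogene that derives from mitochondrial DNA. A cluster of these lies on chromosome 1 (GRCm38) between 24611535 and 24616197 on the minus strand, and holds Gm28439, Gm10222, Gm28438, Gm28437, Gm10925, Gm28661 and Gm29216, which copy part or all of mt-Nd4, mt-Nd4l, mt-Nd3, mt-Co3, mt-Atp6, mt-Co2 and mt-Co1. Others lie on chromosome 2 (Gm13339, Gm13340 and Gm13341) and on chromosome 4 (Gm11407, Gm11408 and Gm11410).

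Where such a copy is identical over the whole length of a read, the sequence alone cannot tell the copy from the mRNA. The first bases of a low mRNA, mt-Co2, and of the abundant mt-Cytb and mt-Nd6 are shown with their nearest annotated copy. The bases at which the copy differs are in capitals.
mt-Co2, bases 1 to 45: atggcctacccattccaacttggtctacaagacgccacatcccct
Gm28661, copy of mt-Co2: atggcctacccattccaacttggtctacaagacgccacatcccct
mt-Cytb, bases 1 to 45: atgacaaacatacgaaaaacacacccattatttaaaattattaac
Gm11410, copy of mt-Cytb: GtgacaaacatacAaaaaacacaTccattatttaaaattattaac
mt-Nd6, bases 1 to 45: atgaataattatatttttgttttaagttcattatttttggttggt
Gm11408, copy of mt-Nd6: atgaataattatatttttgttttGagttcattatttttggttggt
The copy of mt-Co2 had 0 differences here, that of mt-Cytb 3 and that of mt-Nd6 1. These first 45 bases did not separate low from abundant mRNAs. The abundant mt-Co1 and mt-Nd4 also had 0 differences from their nearest copy, and the low mt-Nd3 had 1. Of the others, mt-Co3, mt-Atp6 and mt-Nd4l had 0, and the abundant mt-Nd2, mt-Nd5 and mt-Atp8 had 20, 20 and 21.

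Every stretch of 100 bases of each mRNA was looked up among the annotated nuclear transcripts. For the 4 low mRNAs with values, 97.6% to 99.9% of the stretches had an exact match in a nuclear copy, and 98.5% for mt-Nd4l. For mt-Nd1, mt-Atp8, mt-Nd5, mt-Cytb and mt-Nd6 it was 0%, for mt-Nd2 3.2%, for mt-Co1 30.8% and for mt-Nd4 60.8%. So mt-Co1 and mt-Nd4 were counted at high levels although part of each has an exact copy, and their levels per kb are uncertain for that reason. The study's reporting sheet names 75 sequencing cycles. With 75 bases, the exact share was 5.7% for mt-Nd2, 39.8% for mt-Co1, 61.5% for mt-Nd4 and 1.7% for mt-Nd5. With 50 bases, it was 8.2% for mt-Nd2, 51.1% for mt-Co1, 62.2% for mt-Nd4 and 7.6% for mt-Nd5. Where up to 2 differences were allowed over 50 bases, it was 94.8% for mt-Co1, 51.1% for mt-Nd6, 37.7% for mt-Nd2, 32.2% for mt-Nd5 and 23.3% for mt-Cytb. For mt-Nd4 it stayed at 62.2%, and for mt-Nd1 and mt-Atp8 at 0%. The search covered annotated transcripts and not the genome, and how reads with several matches were handled was not given in the sources used here. The part of such reads in the low levels was not tested.

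**Figure D5:**
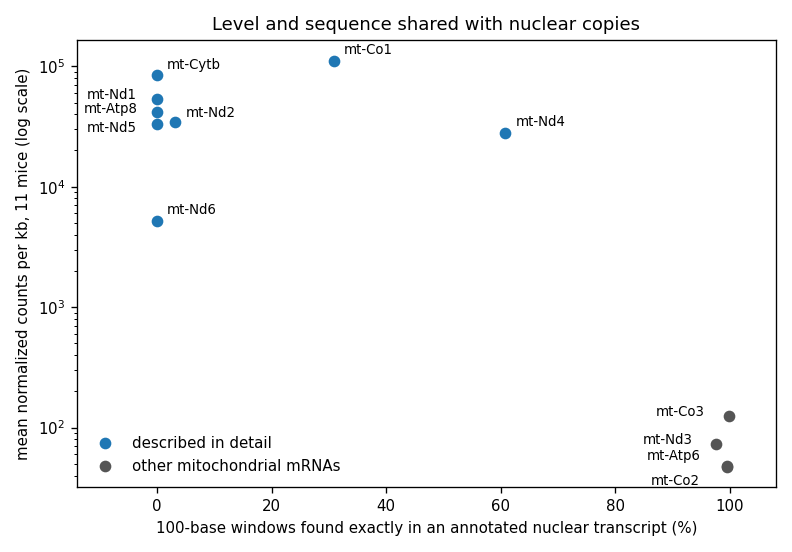
Mean normalized counts per kb over 11 mice (log scale) against the percent of 100-base stretches with an exact match in an annotated nuclear transcript, for the 12 mitochondrial mRNAs with values. The 4 low mRNAs sit between 46.98 and 125 per kb at 97.6% or more, and the 8 abundant ones at 5182 or more and at 60.8% or less.

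Of these 4 low mRNAs, mt-Co2, for the copper-binding subunit of cytochrome c oxidase, fell after DT. It had 53.18, 66.08, 26.15, 40.07 and 48.27 normalized counts in the PBS mice and 14.10 to 25.38 in the DT mice, with a median of 19.96, and even PBS 3 was above every DT mouse. The log2 fold change of mt-Co2 was -1.15 (SE 0.23, limma adjusted p = 0.0549). The call rested on few reads and on several mice, since the limma adjusted p was 0.146 without PBS 1, 0.159 without PBS 2, 0.108 without DT 1, 0.109 without DT 3 and 0.119 without DT 5, and 0.0145 without PBS 3. The other low mRNAs did not pass: mt-Nd3 differed by -0.62 on the log2 scale (limma, adjusted p = 0.385), mt-Atp6 by -0.43 (0.532) and mt-Co3 by -0.28 (0.704).

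The nuclear copies with values were 10, of which 8 had a mean between 0.932 and 6.40 normalized counts. None passed the test, and 9 of 10 had a negative log2 fold change, against 52.7% of all genes. The most highly counted were Gm13340, a copy of mt-Co1, with 73.86 ± 30 normalized counts after PBS and 46.03 ± 17.1 after DT (SD, n = 5 and n = 6; log2 fold change -0.63, limma adjusted p = 0.418), and Gm13341, a copy of mt-Co2, with 37.12 ± 12.6 and 21.31 ± 4.56 (log2 fold change -0.73, limma adjusted p = 0.242). Where a copy matches its mitochondrial mRNA exactly, reads from them are alike, and counts of both are uncertain for the same reason. Such stretches of 100 bases made up 97.6% or more of the low mRNAs. They made up 30.8% of mt-Co1, 3.2% of mt-Nd2 and 0% of mt-Nd5.

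Nuclear genes that make, process and translate mitochondrial RNA did not pass the test in either direction. Of 68 such genes in 5 lists, 0 were called, and 53 had a positive log2 fold change, 77.9% against 47.3% of all genes. The median log2 fold change was 0.11 for 11 genes of mtDNA transcription, 0.09 for 11 of replication and the nucleoid, 0.09 for 22 of RNA processing and stability, 0.08 for 15 translation factors and 0.02 for 9 regulators of biogenesis, where that of all genes was -0.01. Polrmt, the mitochondrial RNA polymerase, had a log2 fold change of 0.06 (SE 0.085), and Tfam, which packages the DNA and starts transcription, one of 0.09 (SE 0.066). Lrpprc, which stabilizes mitochondrial mRNAs, had 0.07 (SE 0.069). These 3 were chosen after their values were seen, for their known role.

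The lowest p of the 68 belonged to Ptcd2, a pentatricopeptide protein known for its part in the maturation of the mt-Cytb transcript. It had 286.5 ± 15.8 normalized counts after PBS (SD, n = 5) and 342.2 ± 21.7 after DT (SD, n = 6), with every DT mouse (316.0 or more) above every PBS mouse (312.8 or less). Its log2 fold change of 0.26 (SE 0.066) did not pass (limma, adjusted p = 0.154). Rnaseh1, which removes RNA primers from mitochondrial DNA, had a log2 fold change of 0.29 (SE 0.092, limma adjusted p = 0.234), Mterf4, a factor of mitochondrial ribosome assembly, 0.22 (SE 0.078, limma adjusted p = 0.288), and Taco1, a translational activator of mt-Co1, 0.21 (SE 0.076, limma adjusted p = 0.293). Ppargc1a, the coactivator known for driving mitochondrial biogenesis, lay in the other direction, with 55.18 ± 10.3 normalized counts after PBS and 39.23 ± 6.88 after DT (SD, n = 5 and n = 6; log2 fold change -0.48, limma adjusted p = 0.264). The highest of each list by level, Mrpl12, Lonp1, Rexo2, Tufm and Nrip1, had log2 fold changes between -0.02 and 0.11.

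None of the subunits encoded in the nucleus that share a complex with the 8 products passed the test. Of 34 such genes, 0 were called and 33 had a positive log2 fold change, 97.1% against 47.3% of all genes, with a median of 0.09 and a range from -0.01 to 0.27. For complex I 6 of 7 were positive (Ndufv2 0.17, limma adjusted p = 0.332), for complex III 9 of 9 (Uqcrc2 0.13 and Uqcrc1 0.07), for complex IV 10 of 10 (Cox4i1 0.13) and for ATP synthase 8 of 8 (Atp5h 0.18 and Atp5b 0.06). Without PBS 4 several of these were smaller, at 0.08 for Uqcrc2, 0.03 for Uqcrc1, 0.05 for Cox4i1 and 0.02 for Atp5b. Without PBS 3, 0 of the 34 and 0 of the 68 passed as well. Without PBS 3 and PBS 5, where 1967 of 19170 genes passed in all, 23 of the 34 did, all higher after DT. Of the 68, 6 passed, 4 of them higher, a share close to that of all genes. Both controls were left out with earlier results known, and the share of all genes in each direction was not worked out for this fit.

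Other gene groups also differed between the PBS and DT mice. Immediate early genes rise within minutes of a stimulus and also of tissue handling. Of 11 such genes, 9 passed and were higher after DT, against 0.313% of all genes. This list and the next were chosen with earlier results of these data known, so their counts are a description. Fos had a log2 fold change of 1.70 (limma, adjusted p = 0.00897) and Jun one of 1.11 (limma, adjusted p = 0.00897). Egr1 and Egr2 were the least firm of the 9, passing in 8 and 6 of 11 fits with 1 mouse omitted. The sum of the 11 was 23910 to 63500 normalized counts after PBS and 66890 to 107600 after DT. In PBS 3 this sum was 33410, below that of every DT mouse, unlike its mitochondrial mRNAs. Of 4 RNAs that are retained in the nucleus, all had a negative log2 fold change, against 52.7% of all genes, with a median of -0.71. Of the 4, 1 passed and was lower after DT, against 0.245% of all genes. The log2 fold change of Kcnq1ot1 was -0.99 (limma, adjusted p = 0.0488), which lost the threshold without PBS 1 (0.133), PBS 2 (0.138) or DT 6 (0.126). Malat1, the most abundant of them, had a log2 fold change of -0.66 (limma, adjusted p = 0.282). Like the mitochondrial mRNAs, the sum of these 4 RNAs was lowest among controls in PBS 3, at 11080 normalized counts (11080 to 29600 in controls, 6814 to 15450 after DT). The part of tissue handling or of RNA quality in the mitochondrial levels was not tested.

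Markers of other tissues were low. Of 9 skeletal muscle markers, 8 had values and 0 passed, and their sum was 61.01 to 116.5 normalized counts after PBS and 54.94 to 106.3 after DT, with Actn3 without a value and Acta1 at a mean of 8.77. Of 5 adipocyte markers, 1 had values, with a sum of 49.18 to 89.52 after PBS and 49.01 to 102 after DT. Red cell markers summed to 92.79 to 267.6 after PBS and 76.88 to 162.9 after DT, and 0 of 5 passed.

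The genes most like the members were sought among the 10011 that averaged 100 or more normalized counts, with all mitochondrial genes left out beforehand. With the mean log2 value of the 7 heavy-strand mRNAs, Pearson's r over the 11 mice was highest for Pus10 (0.902), Gab2 (0.900), Nbeal2 (0.893), Zfp597 (0.882) and Slc22a15 (0.882). For mt-Nd6 it was highest for Gab2 (0.935), Zfp719 (0.916), Zfp84 (0.894), 2810013P06Rik (0.880) and Dot1l (0.880). Gab2 was thus on both lists. All points share the library and its size factor, and the members among themselves reached 0.998.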

How the data were processed

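Poly(A)-selected libraries of gingival epithelium were made from 11 Langerin-DTR mice, grouped by the labels. The authors trimmed and filtered reads, aligned them with TopHat, counted them per gene with htseq-count, excluded rRNA and other gene types, and divided counts by DESeq2 size factors. Per the labels, versions were cutadapt 2.10, TopHat2 2.1.1, HTSeq 2.01 and DESeq2 1.36.0 on GRCm39, whereas the study's methods name GRCm38 and other versions. Instruments, read lengths and kit guidance also differ between these sources. The deposited values are normalized counts: of 55414 genes listed, 19170 had values. Each value was a whole multiple of 1 step per mouse, from which total reads were recovered.

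Log2(normalized count + 1) was tested with limma 3.58.1 (trend) in R 4.3.3, with p-values adjusted by Benjamini-Hochberg over all 19170 (threshold 0.1), and the script was tested on simulated data. No count model was fitted. P-values measure the spread between mice. The members, the gene lists and the alternatives were chosen with earlier results of these data known. Named genes were the members, other mitochondrial mRNAs, their nuclear copies, and from each list the genes called, the lowest p and the highest mean, besides the most correlated genes. Coordinates, lengths and sequences came from GENCODE M21 (GRCm38). Replicate numbers did not pair the mice. One gene that this rule named is not reported here.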

Additional observations from a re-analysis of the deposited data

Results flagged for a closer look

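Of 104 groups of 5 PBS or 6 DT mice tested with Dixon's criterion, 5 held a mouse apart from the others, where chance gives about 1 in 20. For mt-Nd5 as a share of the sum of the 8 mRNAs, PBS 3 was at 8.96%, and the other control mice lay between 12.7% and 13.7%. For mt-Nd3, a low mRNA whose counts are uncertain because of its nuclear copy, PBS 2 was at 66.08 normalized counts (18.89 to 29.42 in the other controls) and DT 4 at 25.77 (16.12 to 19.62 in the other DT mice). Ppargc1a was at 52.38 normalized counts in DT 3, against 33.28 to 40.12 in the other DT mice. Atf3, an immediate early gene, was at 731.3 normalized counts in PBS 4, against 107.0 to 169.7 in the other controls.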

How the results depend on the processing

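Direction did not depend on the processing for any of the 8 mRNAs: the log2 fold change was negative in each alternative run. What passed the threshold did. Without PBS 3 and PBS 5, 1967 of 19170 genes and all 8 mRNAs passed. The log2 fold changes were -0.89 (mt-Nd1), -0.91 (mt-Nd2), -0.85 (mt-Co1), -0.60 (mt-Atp8), -0.99 (mt-Nd4), -0.90 (mt-Nd5), -0.91 (mt-Cytb) and -1.02 (mt-Nd6). Array weights gave 189 genes and 5 of the 8, at -0.74 (mt-Nd1), -0.75 (mt-Co1), -0.85 (mt-Nd4), -0.78 (mt-Cytb) and -0.84 (mt-Nd6). Quantile normalization called 2 of the 8, at -0.63 (mt-Co1) and -0.74 (mt-Nd4). The replicate block gave 35 genes and 0 of the 8. Mice of the same number correlated at 0.088, 0.172, -0.233, -0.209 and 0.324 in their deviations from the group means. Only PBS 5 correlated best with the DT mouse of its own number. PBS 1, PBS 2 and PBS 4 did so with DT 3, and PBS 3 with DT 5. PBS 5 also carries a 6 in brackets in its title, and was numbered 5 as its title and column are. Leaving out 1 mouse at a time gave 27 (without DT 5) to 259 genes (without PBS 5), against 107 with all mice, and 0 to 7 of the 8. The log2 fold changes then ran from -0.84 to -0.50 (mt-Nd1), -0.82 to -0.43 (mt-Nd2), -0.85 to -0.57 (mt-Co1), -0.42 to -0.07 (mt-Atp8), -0.99 to -0.64 (mt-Nd4), -0.85 to -0.36 (mt-Nd5), -0.90 to -0.59 (mt-Cytb) and -0.99 to -0.60 (mt-Nd6). Some genes near 0 changed sign: the log2 fold change of Gm28439 with a pseudocount of 0.5 (-0.033), under the block (-0.16) and with mice left out (-0.16 to 0.32), Gm29216 under quantile normalization (0.043) and with mice left out (-0.36 to 0.15), Atp5b under quantile normalization (-0.0051), Lonp1 under scaling by total reads without mitochondrial genes (-0.0076), Rexo2 without PBS 3 and PBS 5 (0.010) and Nrip1 with mice left out (-0.053 to 0.028). The causes were not tested. Other pseudocounts, a minimum mean of 10, TMM and total-read scaling left 0 of the 8 past the threshold. The planned count tests on recovered reads were not run. Depth did not limit the 8 mRNAs, whose lowest value was 1564 normalized counts, but it limited mt-Co2 and the nuclear copies.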
